A study of Mus musculus with 11 samples.

Results

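The unirradiated apex of the C57BL/6 mouse heart was described from 4 bulk RNA-seq libraries, labelled NR with the treatment given as none, out of 11 libraries in the series. The other 7 libraries came from heart apex exposed to a single 40 Gy dose of proton radiotherapy, 4 to standard (S-PRT) and 3 to FLASH delivery (F-PRT), taken 2 weeks later, and they were not used here. All 4 unirradiated libraries were included with every gene identifier in the files, which numbered 55414. The labels give the strain and the tissue but neither the age nor the sex of the animals, and they do not say whether each library came from a separate mouse. The spread given below, as SD over n = 4 libraries, therefore describes how these libraries differ, and technical sources may contribute. Total expected counts, the estimated number of reads per gene summed over genes, were 28097280, 27780213, 31186064 and 37372372 in replicates 1 to 4, and 4 values in a row below follow that listing.

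The ventricular wall is built mainly from cardiomyocytes, which hold most of its RNA although endothelial cells, fibroblasts, pericytes and macrophages outnumber or match them. Cardiomyocytes contract without pause, so their transcripts are dominated by sarcomere proteins, by calcium-handling proteins and by the machinery that oxidises fatty acids in mitochondria. Mitochondria carry a small genome of their own, most of whose messenger RNAs are polyadenylated and are therefore kept by poly(A) selection. In bulk tissue, fewer cells of a type and less RNA per cell cannot be told apart.

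In TPM, a measure of transcript share that divides reads by transcript length and sums to the same total in each library, 10171 genes reached 1 TPM in all 4 libraries. Of these, 5353 reached 5 TPM, 460 reached 100 TPM, 55 reached 1000 TPM and 16 reached 10000 TPM in all 4. Another 32265 identifiers had no read in any of the 4 libraries. Every one of the 16 genes above 10000 TPM was either encoded in the mitochondrial genome or matched a stretch of it.

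Mitochondrially encoded genes, 37 in number, held 52.4, 49, 45.6 and 42.1% of TPM in the 4 libraries, a mean of 47.3% ± 4.42. Replicate 1 was highest and replicate 4 lowest. mt-Co1, the catalytic subunit of cytochrome oxidase, led with 99024, 94251, 84511 and 78413 TPM, followed by mt-Co2, its copper-binding subunit, with 82338, 77390.3, 76846 and 68839 TPM. mt-Cytb of complex III had 40278 ± 3668 TPM (SD, n = 4), and mt-Nd1, mt-Nd4 and mt-Nd2 of complex I had 34695, 29662 and 25393 TPM on average. mt-Nd6, which is encoded on the opposite strand to the other messenger RNAs and overlaps mt-Nd5, had 23577 ± 3812 TPM. No label or file header states strand-specific assignment. Whether reads from the opposite strand enter the value of mt-Nd6, in its overlap with mt-Nd5 or elsewhere, is therefore uncertain.

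The third gene by mean TPM, mt-Atp8, shows how strongly length enters this measure. Its 80448, 75725, 70573 and 68669.9 TPM came from a mean of 45202 counts over an effective length of only 18.1 bases. By counts it ranked 46, whereas mt-Cytb ranked 6 by TPM and 2 by counts. The short noncoding RNA Bc1 likewise had 745, 521, 996 and 981 TPM from only 147, 112, 186 and 214 counts. At the other extreme Ttn, the giant spring of the sarcomere, had 26.8, 35.9, 25.9 and 28.8 TPM but 56894, 71935, 54205 and 71090 counts, rank 33 by counts and rank 1667 by TPM.

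A group of 7 nuclear pseudogenes carried a further 14.9% ± 1.25 of TPM and 5.79% ± 0.708 of counts. All 7 lie next to each other on the minus strand of chromosome 1 in GENCODE M21 on GRCm38, between base 24611535, the start of Gm28439, and base 24616197, the end of Gm29216. Laid without gaps along the mitochondrial transcripts, 5 of the 7 did not differ from them at any base, namely Gm10925 along mt-Atp6 over 678 bases, Gm28437 along mt-Co3 over 783 bases, Gm10222 along mt-Nd4l over 294 bases, Gm28439 along mt-Nd4 over 876 bases and Gm28661 along mt-Co2 over 681 bases. Gm28438 differed from mt-Nd3 at 1 of 345 bases, and Gm29216 from mt-Co1 at 6 of 492. The first 60 bases of 2 pairs are shown because reads can be told apart by sequence only where the letters differ. In the second pair the capitals mark the single difference, T3C, with the mitochondrial base first and positions counted from 1 at the 5′ end of mt-Nd3.
mt-Atp6: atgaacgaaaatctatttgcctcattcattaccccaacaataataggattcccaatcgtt
Gm10925: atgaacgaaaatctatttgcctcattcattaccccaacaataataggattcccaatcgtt
mt-Nd3: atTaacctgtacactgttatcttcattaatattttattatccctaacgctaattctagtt
Gm28438: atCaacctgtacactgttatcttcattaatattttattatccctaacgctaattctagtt

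Between members of such a pair the deposited values were split unevenly and not in a common ratio. Gm10925 had 51201, 48377, 45098 and 43529 TPM, against 15194, 14061, 12859.6 and 12829.8 TPM for mt-Atp6, which it matches at every aligned base. Gm28437 had a mean of 46643 ± 2777 TPM and mt-Co3 16559 ± 1435 TPM. Gm28438 and mt-Nd3 had means of 26472 and 6663 TPM, and Gm10222 and mt-Nd4l had 28215 and 12257 TPM. The split went the other way for mt-Co2, whose copy Gm28661 was listed at 0 TPM in all 4 libraries. Gm28439, the copy of mt-Nd4, had 25792, 0, 3684 and 0 counts, so 2 libraries gave it none, and Gm29216, the copy of part of mt-Co1, averaged 149.8 TPM. Reads inside an identical stretch cannot be placed in one genome or the other from these values. With both sources summed, 68.8, 64.4, 59.8 and 55.7% of TPM and 50.4, 44.8, 40.3 and 35.6% of counts belonged to mitochondrial sequence.

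**Figure D1:**
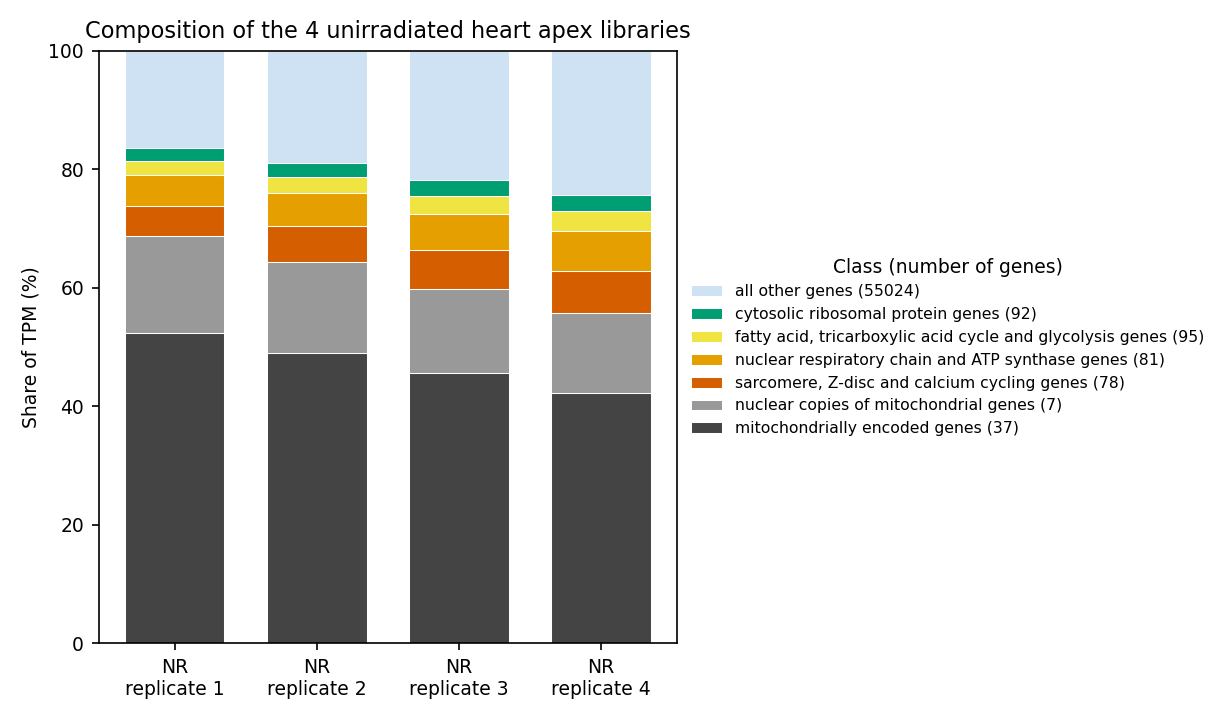
Stacked bars of the share of TPM (y axis, percent) in 7 classes that do not share genes, for each unirradiated library (x axis), with the number of genes in parentheses. The 2 grey classes at the bottom, mitochondrially encoded genes and their nuclear copies, hold between 55.7% and 68.8% of TPM, and the class of all other genes between 16.5% and 24.3%.

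Because these 2 classes differed so much between libraries, the TPM of every other gene is pushed down where they are high. Levels of nuclear genes were therefore also rescaled to the same total without the 37 mitochondrial genes and the 7 copies, called nuclear TPM below. On that scale the classes varied little. Sarcomere, Z-disc and calcium cycling genes, 78 in all, held 16.3% ± 0.32 of nuclear TPM. The 81 nuclear genes of complexes I and III, cytochrome oxidase and ATP synthase held 15.7% ± 0.634. The 95 genes of fatty acid oxidation, the tricarboxylic acid cycle and glycolysis held 7.54% ± 0.0388, and 92 cytosolic ribosomal protein genes held 6.73% ± 0.236. Protein-coding genes by GENCODE M21 made up 97.8% ± 0.121 of nuclear TPM and long noncoding RNAs 1.03% ± 0.0477. Among nuclear genes 28 sufficed for 25% of nuclear TPM, 182 for 50% and 3334 for 90%.

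The most abundant nuclear transcript was Myl2, the ventricular regulatory light chain of myosin, with 7952, 9195, 9867 and 10191 TPM. Mb, the oxygen store myoglobin, followed with 7424, 8593, 9609 and 10669 TPM and Tnnt2, cardiac troponin T, with 5577, 6495, 7057 and 7528 TPM. For all 3 genes replicate 1 was lowest, and in nuclear TPM their coefficients of variation were 5.1%, 0.685% and 2.98%. Myh6, the fast alpha myosin heavy chain, had 4780.3, 6118, 6121 and 7241 TPM and was the nuclear gene outside the copies with the most counts, 559084, 653709, 686895 and 923769. The remaining thin and thick filament leaders were Tpm1 with 5754 ± 596 TPM, Myl3 with 5529 ± 814, Actc1 with 4589 ± 1019, Tnni3 with 4015 ± 533 and Tnnc1 with 2961 ± 484. Outside the sarcomere, Fabp3, which carries fatty acids through the cytosol, had 3768 ± 626 TPM. Atp5b, the catalytic beta subunit of ATP synthase, had 3235 ± 421, and Slc25a4, which exchanges ADP for ATP across the inner mitochondrial membrane, had 2212 ± 339. Atp2a2, the SERCA2 pump that refills the sarcoplasmic reticulum with calcium, had 3015 ± 374 TPM and Pln, its inhibitor phospholamban, 2242 ± 231. Expected counts of Myh6, Mb, Fabp3, Atp2a2 and Pln were fractional in all 4 libraries, which happens where reads are divided among genes, and their levels are uncertain to that extent.

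**Figure D2:**
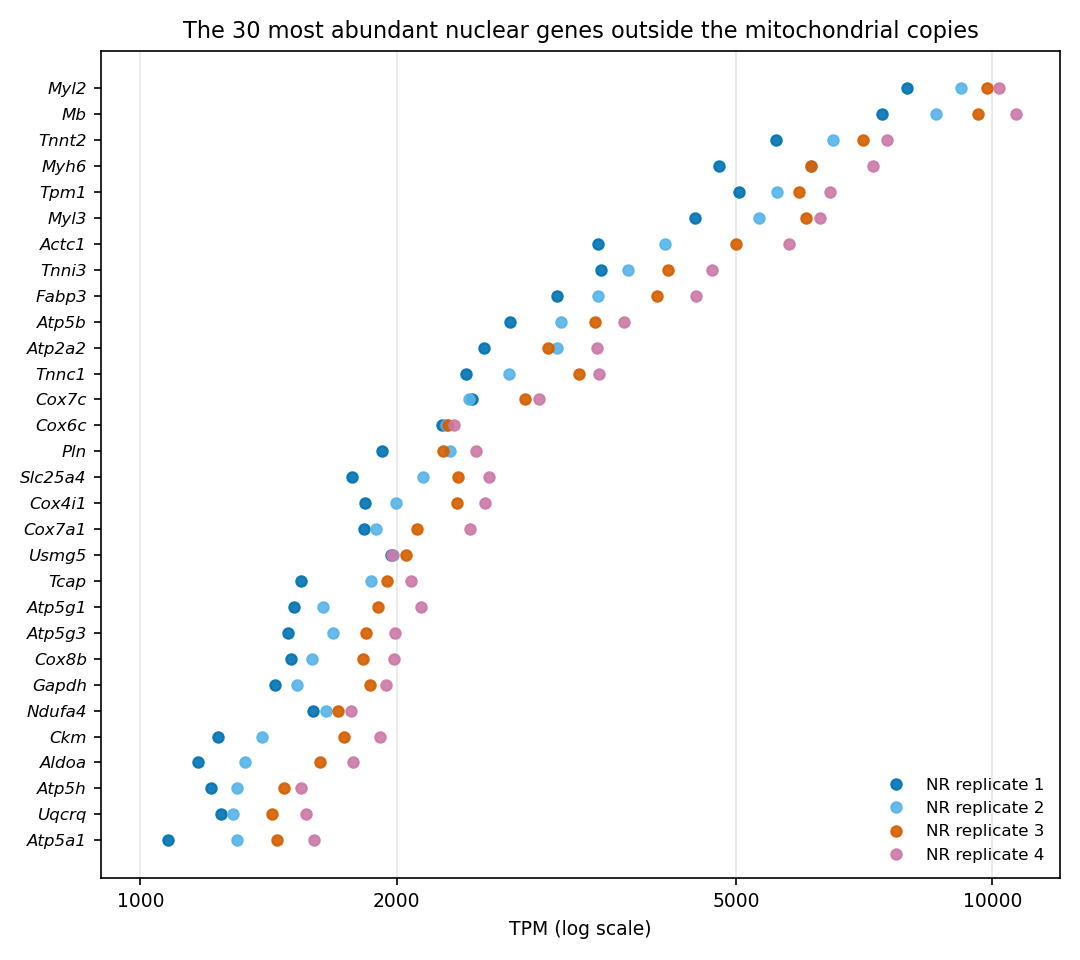
TPM on a log axis (x) of the 30 most abundant nuclear genes outside the mitochondrial copies (y, ordered by mean TPM), with 1 point for each of the 4 libraries. Myl2 and Mb stand at the top near 9301 and 9074 TPM on average, and replicate 1 lies lowest except for Cox7c and replicate 4 highest except for Usmg5.

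Related genes that encode the same sarcomere part were used very unequally. Myh6 made up 99.7% ± 0.113 of the TPM of Myh6 and Myh7 together, the latter being the slow beta chain. The atrial light chain Myl7 made up 0, 0, 0.00669 and 0.00844% of its sum with Myl2, and the atrial and fetal chain Myl4 0.0141, 0.0192, 0.0275 and 0.015% of its sum with Myl3. Tnni3 held 99.9% ± 0.00859 of troponin I against the slow and fast skeletal genes Tnni1 and Tnni2, and the fast skeletal gene Tnnc2 only 0.0046% ± 0.00143 of troponin C. The sarcomeric actins varied more, since Acta1, the skeletal alpha-actin, held 1.29, 1.96, 3.57 and 4.72% beside cardiac Actc1. Atp2a2 held 99.9% ± 0.0216 of the SERCA genes, Ryr2 99.9% ± 0.0291 of the ryanodine receptors, and Casq2 99.1% ± 0.348 of the calsequestrins. Myh7 is antisense to part of the noncoding Mhrt, at 24.6, 27.7, 30.7 and 41.2 TPM, and without stated strand use their reads cannot be fully told apart.

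Metabolic isoform pairs were also one-sided, though less so. Cox6a2, Cox8b and Cox7a1, the muscle forms of 3 cytochrome oxidase subunits, held 91.5% ± 1.36, 92.1% ± 0.419 and 82.7% ± 1.02 of their pairs. The muscle glycolytic isoforms Pgam2 and Eno3 held 95.3% ± 0.536 and 90.3% ± 0.631 of their sets. Ldhb, the heart form of lactate dehydrogenase, held 78.6% ± 0.621, with Ldha supplying the rest. Hexokinase was closest to even, with Hk2 at 59.5, 56.5, 57 and 55.3% and Hk1 making up the remainder. For entry of fuel, Slc2a4, the insulin-responsive glucose transporter GLUT4, held 96.8% ± 0.133 beside Slc2a1, and Cpt1b, the muscle enzyme that commits fatty acids to mitochondria, held 93.7% ± 0.628 of the CPT1 genes.

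Fatty acid genes outweighed glucose genes in summed level. The 39 genes of fatty acid uptake and oxidation summed to 10367, 11754, 13509.9 and 14941 TPM, and the 33 genes of glucose transport and glycolysis to 6669, 7423, 8792 and 9617 TPM. In nuclear TPM these sums were nearly flat over the libraries, at 33227, 33014, 33583 and 33741 and at 21373, 20848, 21855 and 21716. Lpl, the lipase that frees fatty acids from lipoproteins, had 1045 ± 130.5 TPM, and Cd36, a fatty acid transporter shared with endothelium, 524 ± 96.8. Gapdh and Aldoa, glycolytic enzymes, had 1692 ± 246 and 1474 ± 276 TPM. The 23 genes of the tricarboxylic acid cycle reached 1 TPM throughout and summed to 7773 ± 1077 TPM, led by Idh2 with 849 ± 105. Nuclear regulators of this programme stood far lower, Esrra, the estrogen-related receptor alpha, at 73.1 ± 12.2 TPM, and Ppargc1a and Ppara at 9.46 ± 0.874 and 6.04 ± 0.737. Pdk4, which shuts glucose carbon out of mitochondria in fasting, had 110.4, 64.7, 149 and 168 TPM, and its SD in log2 CPM of 0.50 was the largest of the 29 glycolysis genes that passed the filter on low counts.

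Of 22 potassium, sodium and pacemaker channel genes 20 reached 1 TPM in all 4 libraries. Kcnip2, the subunit that shapes the transient outward current, had 58.8, 65.7, 74.8 and 85.1 TPM. As above, TPM of nuclear genes is pushed down where the mitochondrial share is high. The 22 channel genes summed to 287, 346, 355 and 418 TPM but to 920, 973, 882 and 944 in nuclear TPM. Dsp, desmoplakin of the desmosome, led the 16 genes of cell junctions and the dystrophin complex with 110.4 ± 15.3 TPM, and all 16 reached 1 TPM. Gja1, the ventricular connexin 43, held 91.9% ± 0.497 of the TPM of Gja1, Gja5 and Gjc1. Among receptors Chrm2, the muscarinic receptor of the vagal brake, had 13, 16.4, 14.3 and 16.3 TPM, and Adra1b 10.5, 11.6, 11.8 and 13.7. Adrb1, the main cardiac beta-adrenergic receptor, had 5.21, 7.33, 6.54 and 8.25 TPM. Of 14 receptor genes in this set, 5 reached 1 TPM in all 4 libraries, and Chrm1, Chrm4 and Chrm5 had no count in any library. Nppb and Nppa, the natriuretic peptides that the heart releases on stretch, had 104, 118, 208 and 186 and 78.8, 109, 96.7 and 87.3 TPM. Corin, the protease that activates pro-Nppa, had 30.6 ± 3.55 TPM. Transcription factors of the heart were led by Hopx with 173 ± 18.3 TPM, then Nkx2-5 with 34.9 ± 6.07, Mef2d with 31.9 ± 4.42 and Srf with 28.9 ± 4.63, and Gata4 had 24.8 ± 5.34. The progenitor factor Isl1 and Hand1 had no read in any of the 4 libraries. A count of 0 allows up to 3 counts, which is 0.0803 to 0.108 CPM (counts scaled to library size) in these libraries, for counting error alone.

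Marker lists placed the tissue as ventricular. All 22 ventricular cardiomyocyte markers reached 1 TPM in every library, and they summed to 53477, 62729, 68484 and 74863 TPM, or 171392, 176189, 170236 and 169056 in nuclear TPM. The latter values lie within a few percent of each other, with a coefficient of variation of 1.82%. Of 6 atrial markers only Nppa reached 1 TPM in every library. Myl7 had 0, 0, 8 and 12 counts, Sln, the atrial regulator of SERCA, 0, 1, 0 and 0 counts, and Bmp10 none. In the conduction system list 4 of 10 genes reached 1 TPM, Irx3 with 8.92, 13.1, 13.4 and 13.1 TPM and the pacemaker channel gene Hcn4 with 1.14, 1.85, 1.13 and 1.72 TPM. Of the fast skeletal myosins, Myh4 had no count, Myh1 had 0, 0, 0 and 1 counts and Myh2 0, 1, 0 and 1. Lung, liver, thymus and adipocyte lists summed to under 1 TPM in every library. Their summed counts were 1, 0, 0 and 0 for lung and 3, 3, 0 and 6 for liver. For thymus they were 1, 0, 1 and 0, and for adipocytes 8, 0, 0 and 1. Among their members Sftpc, Alb, Cidec and Lep had no count. The Y-linked genes Ddx3y, Uty, Eif2s3y and Kdm5d were read in all 4 libraries, Ddx3y at 10.7, 13, 16 and 15.6 TPM, while Xist, which is expressed from the inactive X chromosome, had 2.01, 3, 1 and 6.31 counts, a pattern of male tissue in each library.

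**Figure D3:**
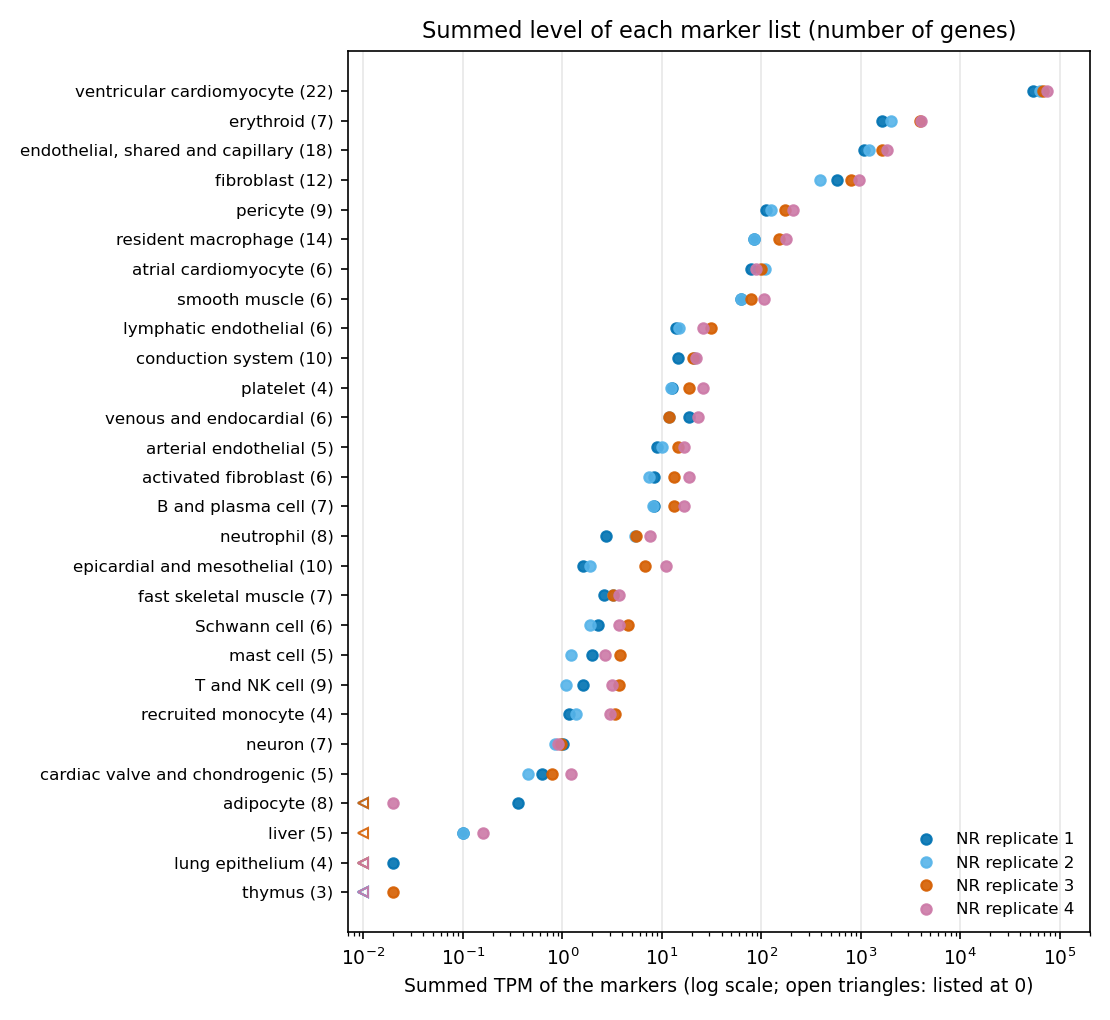
Summed TPM of the markers of 28 cell types on a log axis (x) for each of the 4 libraries (points), with the number of genes in each list in parentheses. Ventricular cardiomyocyte markers lie between 53477 and 74863 TPM, erythroid, endothelial and fibroblast lists follow, and lung, liver, thymus and adipocyte lists stay under 1 TPM, with open triangles for a sum listed at 0.

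Non-myocyte lists were lower by 1 order of magnitude or more. The 18 markers of shared and capillary endothelium summed to 1072, 1195, 1643 and 1848 TPM, of which Cd36 and Fabp4, both also present in other cells, supplied the most. More restricted endothelial genes were Cdh5, the junctional VE-cadherin, with 16.8, 18, 31.3 and 41.2 TPM, and Pecam1 with 17.1, 19.1, 29.3 and 35.9. Fibroblast markers summed to 574, 388, 802 and 967 TPM, with Gsn at 314, 196, 424 and 498, Dcn at 131, 92.1, 181 and 212 and the lineage receptor Pdgfra at 3.2, 1.72, 3.81 and 5.08. Gsn supplied the largest part of these sums. Replicate 2 was the lowest library for this list also in nuclear TPM, where the sums were 1839, 1091, 1993 and 2185. Over the 12 markers the median deviation of log2 CPM from the mean of each gene was 0.03, -0.59, 0.18 and 0.34. Pericyte markers summed to 111, 124, 173 and 206 TPM, led by Rgs5 with 70.0 ± 20.9, and smooth muscle markers to 62.4, 62.1, 78.9 and 106 TPM.

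Among blood and immune lists, resident macrophage markers summed to 84.3, 84.6, 151 and 178 TPM. The complement genes C1qa, C1qb and C1qc led this list with 29.9, 28.2 and 22.7 TPM, and the identity genes Adgre1 and Csf1r had 2.56 ± 0.801 and 7.96 ± 3.17. Markers of recruited monocytes, neutrophils, T and NK cells and mast cells each summed to under 10 TPM in all 4 libraries, and the T cell gene Cd3e averaged 0.2 TPM. Erythroid markers summed to 1629.97, 1994, 3931 and 4006 TPM, nearly all of it globin, with Hba-a2 at 702, 869.8, 1652 and 1714 and Hbb-bs at 664, 789, 1584 and 1588. Replicates 3 and 4 were above replicates 1 and 2 for erythroid, endothelial, pericyte and macrophage sums, in TPM and in nuclear TPM. It did not hold for smooth muscle in nuclear TPM, with 200.1, 174, 196 and 239.5, or for the 6 venous and endocardial markers, which summed to 18.6, 11.8, 11.8 and 23.4 TPM and 59.8, 33.3, 29.4 and 52.7 in nuclear TPM, lowest in replicate 3. It held for the 10 epicardial and mesothelial markers, which summed to only 1.63, 1.89, 6.8 and 11 TPM, and for the 6 lymphatic markers with 13.9, 14.9, 31 and 25.7 TPM. The erythroid sums in nuclear TPM were 5224, 5601, 9771 and 9047. The part of these cell types in the differences between libraries was not tested.

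Variation between the 4 libraries was measured as the SD of log2 CPM, with TMM-normalised counts and a prior count of 2, over 13157 genes that passed a filter on low counts. The median SD was 0.13, and 483 genes (3.67%) had an SD of at least 0.5. Counting error sets a floor that depends on level. Between 1 and 5 CPM the median SD was 0.23 where read counting alone gives 0.17, and between 100 and 1000 CPM it was 0.09 where counting gives 0.02. The counting values were computed without the prior count, so they are approximate, above all for low genes. The common biological coefficient of variation from edgeR was 10.8%. Library pairs correlated across genes at Pearson r of 0.988 to 0.994, a description over genes that are not independent.

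**Figure D4:**
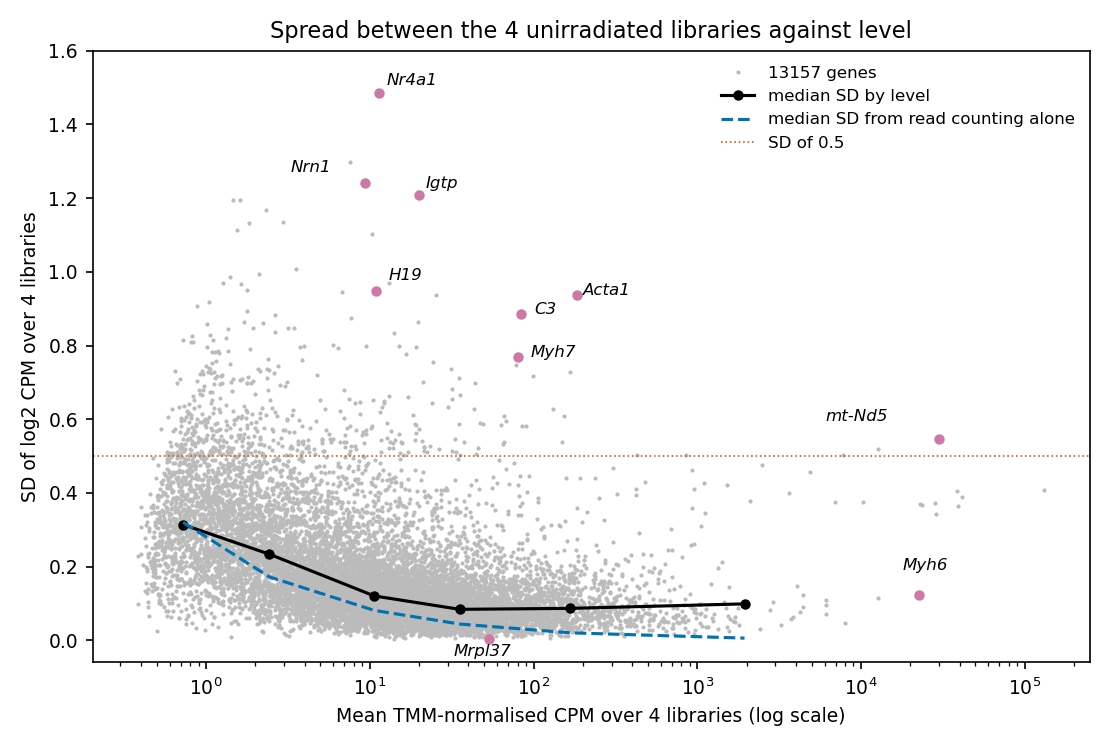
SD of log2 CPM over the 4 libraries (y) against mean CPM on a log axis (x) for 13157 genes (grey), with the median SD in 6 ranges of level (black line), the median SD that read counting alone would give (dashed line) and an SD of 0.5 (dotted line). Named genes are in pink, with Nr4a1 at 1.49, Acta1 at 0.94 and Myh6 at 0.12.

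Families differed in how steady they were. The 22 ventricular cardiomyocyte markers had a median SD of 0.10 and none reached 0.5. Mitochondrial ribosomal proteins, 78 genes, had 0.06, tricarboxylic acid cycle genes 0.06 and cytosolic ribosomal proteins 0.10, again with none at 0.5. The SD depends on level, however. Over all genes between 20 and 100 CPM the median was 0.08, and 1.11% reached 0.5. Between 100 and 1000 CPM these were 0.09 and 0.80%, and from 1000 CPM 0.10 and 4.55%. Having none at 0.5 therefore does not set these families apart from other abundant genes. The 13 mitochondrially encoded messenger RNAs, abundant as they were, had a median SD of 0.39, with mt-Nd5 at 0.55. Extracellular matrix genes had a median of 0.41 with 11 of 30 at 0.5 or more. Antigen presentation genes had 0.63 with 12 of 13, and interferon response genes 0.59 with 20 of 29, against 0.13 and 3.67% over all genes tested. The immediate early genes lay between, with a median of 0.31 and 4 of 20 at 0.5 or more. The most even genes above 50 CPM were Mrpl37 of the mitochondrial ribosome, with 53.8, 53.7, 53.9 and 53.9 CPM, and Pmpcb, a subunit of the protease that trims imported mitochondrial proteins, with 125, 125, 126 and 126. The calmodulin gene Calm2, the splicing factor genes Rbm39 and Hnrnpa2b1 and the catalase gene Cat were also among the 10 smallest, each with an SD of 0.01.

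Nr4a1, an orphan nuclear receptor induced early by many stimuli, had the largest SD among genes with a mean of at least 2 CPM once predicted genes and clone names were left out, with 4.59, 2.91, 31.8 and 6.6 CPM and an SD of 1.49. Its relative Nr4a3 had 2.11, 1.46, 7.03 and 1.15 CPM. Replicate 3 was the highest library for both, and the other 3 reached at most 6.60 and 2.11 CPM. Without replicate 3 the SD was 0.58 for Nr4a1 and 0.43 for Nr4a3. Other immediate early genes, given here in TPM, did not all show that pattern in this unit. Fos had 0.25, 0.14, 1.21 and 2.09 TPM, Egr1 0.94, 1.01, 1.9 and 3.17 and Jun 10.1, 11.8, 16.2 and 22.2. Jund, the most abundant, had 40.8, 50.8, 62.1 and 66.5 TPM. TPM is pushed down where the mitochondrial share is high, so the order of libraries in TPM and in CPM is not directly comparable. Over the 20 filtered immediate early genes, Nr4a1 and Nr4a3 included, the median deviation of log2 CPM was highest in replicate 3. Its values were -0.09, -0.30, 0.20 and 0.10. Nrn1, which encodes the membrane-bound neuritin, had 2.36, 8.05, 19.7 and 7.4 CPM, with replicate 1 lowest and replicate 3 highest.

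Interferon-inducible and antigen presentation genes recurred among the 30 most variable genes. Igtp, an interferon-inducible GTPase, had 7.73, 9.08, 49.3 and 13.4 CPM. Its relatives Irgm2 and Tgtp1 had 14, 13.3, 54.2 and 20.5 and 3.8, 5.37, 21.7 and 10.5 CPM, and the guanylate-binding protein genes Gbp2 and Gbp3 had 9.22, 10.4, 30.1 and 17.3 and 7.52, 8.09, 25.9 and 14.9. In each of these 5 genes replicate 3 was highest, replicate 4 next, and replicates 1 and 2 lowest. Tap1, a subunit of the peptide pump that loads MHC class I, had 5.91, 6.97, 26 and 13.3 CPM, and Nlrc5, the activator of class I genes, 2.44, 2.26, 7.73 and 3.44. Cd274, which encodes PD-L1, had 4.51, 6.51, 16.2 and 10.6 CPM. B2m, the light chain of class I, was far more abundant and was also highest in replicate 3, with 153, 129, 363 and 248 TPM. By summed nuclear TPM the 33 interferon response genes gave 497, 457, 965 and 732, and the 13 antigen presentation genes 1331, 988, 2625 and 1664. Class II genes and Cd74, typical of macrophages and dendritic cells, are part of the latter list, and Cd74 had 54.9, 44.7, 134 and 90.1 TPM. Several of these GTPases have near-identical copies, and Igtp, Irgm2, Tgtp1, Tgtp2 and Gbp3 had fractional counts in 2 to 4 libraries, so reads may be shared between relatives. Without replicate 3 the SD was 0.40 for Igtp, 0.34 for Irgm2, 0.38 for Tgtp2, 0.36 for Ifi47, 0.31 for Nlrc5 and 0.48 for Gbp2 and H2-Q6, all under 0.5, and it remained above 0.5 for Tgtp1, Tap1, Gbp3, Cd274, Usp18 and H2-Q7.

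Promoters of 5 of these genes are shown because the genes were high in the same library. They run from 250 bases before to 50 bases after the annotated start, from RefSeq on GRCm38.p6, and capitals mark an interferon-stimulated response element, searched on both strands as GAAA followed by any 2 bases and again GAAA. The motif occurred in 3.44% of 32851 promoters of this length, and 3.99% of 27025 genes had it in at least 1 promoter. Of the 33 interferon response genes 24 had a promoter in the table, and 15 of these 24 held it, among them Isg15, Ifit1, Ifit3 and Rsad2. Of the 13 antigen presentation genes 8 had a promoter, and only B2m held it. Of the 30 most variable genes 23 had a promoter, and 6 held it, namely Gbp2, Gbp3, Igtp, Irgm2, Tgtp1 and Tgtp2. The match began 34 bases before the start in Igtp, 64 in Irgm2, 77 in Tgtp1 and, on the opposite strand, 59 in Gbp2. Tap1 had none in this window. A match is a description of letters only. The interferon response list was chosen as genes that respond to interferon, so its share with the motif does not bear on these libraries. The stretches shown for Igtp and Irgm2 are largely alike, so they do not count as separate cases.
Igtp (chr11:58199306-58199605, plus strand): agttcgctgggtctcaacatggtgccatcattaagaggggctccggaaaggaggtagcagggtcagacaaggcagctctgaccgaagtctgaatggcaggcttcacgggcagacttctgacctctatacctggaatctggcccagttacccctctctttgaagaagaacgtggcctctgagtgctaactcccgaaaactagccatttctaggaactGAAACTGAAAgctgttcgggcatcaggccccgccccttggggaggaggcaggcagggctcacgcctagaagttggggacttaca
Irgm2 (chr11:58214727-58215026, plus strand): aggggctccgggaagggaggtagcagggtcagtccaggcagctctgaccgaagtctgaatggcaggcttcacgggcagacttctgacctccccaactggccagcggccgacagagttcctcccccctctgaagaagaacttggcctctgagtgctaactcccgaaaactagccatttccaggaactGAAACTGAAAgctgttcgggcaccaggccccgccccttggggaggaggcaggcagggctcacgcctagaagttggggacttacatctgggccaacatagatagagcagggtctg
Tgtp1 (chr11:48992197-48992496, minus strand): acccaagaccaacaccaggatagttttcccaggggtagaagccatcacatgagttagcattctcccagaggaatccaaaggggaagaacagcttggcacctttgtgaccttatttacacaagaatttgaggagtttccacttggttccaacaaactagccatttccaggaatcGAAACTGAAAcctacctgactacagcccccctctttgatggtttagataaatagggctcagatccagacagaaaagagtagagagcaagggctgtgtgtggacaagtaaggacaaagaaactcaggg
Gbp2 (chr3:142620413-142620712, plus strand): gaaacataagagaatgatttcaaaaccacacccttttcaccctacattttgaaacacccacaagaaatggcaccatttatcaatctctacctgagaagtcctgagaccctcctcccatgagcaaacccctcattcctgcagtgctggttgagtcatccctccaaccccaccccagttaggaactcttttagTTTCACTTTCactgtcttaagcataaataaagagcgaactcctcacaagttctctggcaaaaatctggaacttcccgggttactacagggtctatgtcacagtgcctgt
Tap1 (chr17:34187306-34187605, plus strand): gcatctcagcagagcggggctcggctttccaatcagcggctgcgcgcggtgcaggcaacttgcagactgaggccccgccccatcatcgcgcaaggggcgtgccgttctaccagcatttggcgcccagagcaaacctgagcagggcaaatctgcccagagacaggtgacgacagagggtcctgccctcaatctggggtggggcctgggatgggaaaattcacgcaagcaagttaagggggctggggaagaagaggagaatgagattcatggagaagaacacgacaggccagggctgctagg

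Other genes of the 30 had a different low library. C3, the central complement protein, had 68, 32.3, 109 and 127 CPM, C4b 5.95, 2.99, 11 and 10.7 and C7 6.9, 2.22, 8.77 and 9.16. For each of the 3 genes replicate 2 was lowest and replicates 3 and 4 highest, with replicate 1 between. Outside the 30, the fibrillar collagens of fibroblasts Col1a1, Col3a1 and Col1a2 had SDs of 0.75, 0.73 and 0.72, with Col3a1 at 24.1, 14.9, 41.9 and 51.2 TPM. Within the 30, Ccn5, a matricellular protein gene, had 4.67, 2.91, 8.4 and 9.76 CPM, and Cilp, a matrix gene of activated fibroblasts, 5.66, 2.41, 6.94 and 8.84. Replicate 2 was also the lowest library for summed fibroblast markers, and its part in these differences was not tested. Without replicate 2 the SD was 0.22 for C7, 0.32 for Cilp, 0.47 for C3 and 0.50 for C4b, just under the threshold, and 0.56 for Ccn5. Of the 483 variable genes 75 (15.5%) lay below their mean in replicate 2 alone, against 6.52% of all genes tested.

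Acta1, Myh7 and H19, singled out here after their values were seen, were each highest in a different library. Acta1 had 73.8, 118, 232 and 309 CPM, highest in replicate 4 and lowest in replicate 1, an SD of 0.94. Myh7 had 62.2, 145, 74.8 and 40.0 CPM, with replicate 2 highest and replicate 4 lowest, and an SD of 0.46 without replicate 2. H19, an imprinted noncoding RNA that is abundant in the fetus, had 22.7, 9.7, 5.33 and 5.91 CPM, highest in replicate 1, and an SD of 0.46 without it. Nppa and Nppb were steadier, with SDs of 0.30 and 0.29. Cyp26b1, which breaks down retinoic acid, and Wif1, an inhibitor of Wnt ligands, shared the high value in replicate 1, at 7.61, 2.45, 2.65 and 1.37 and 6.57, 2.84, 1.52 and 2.89 CPM.

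**Figure D5:**
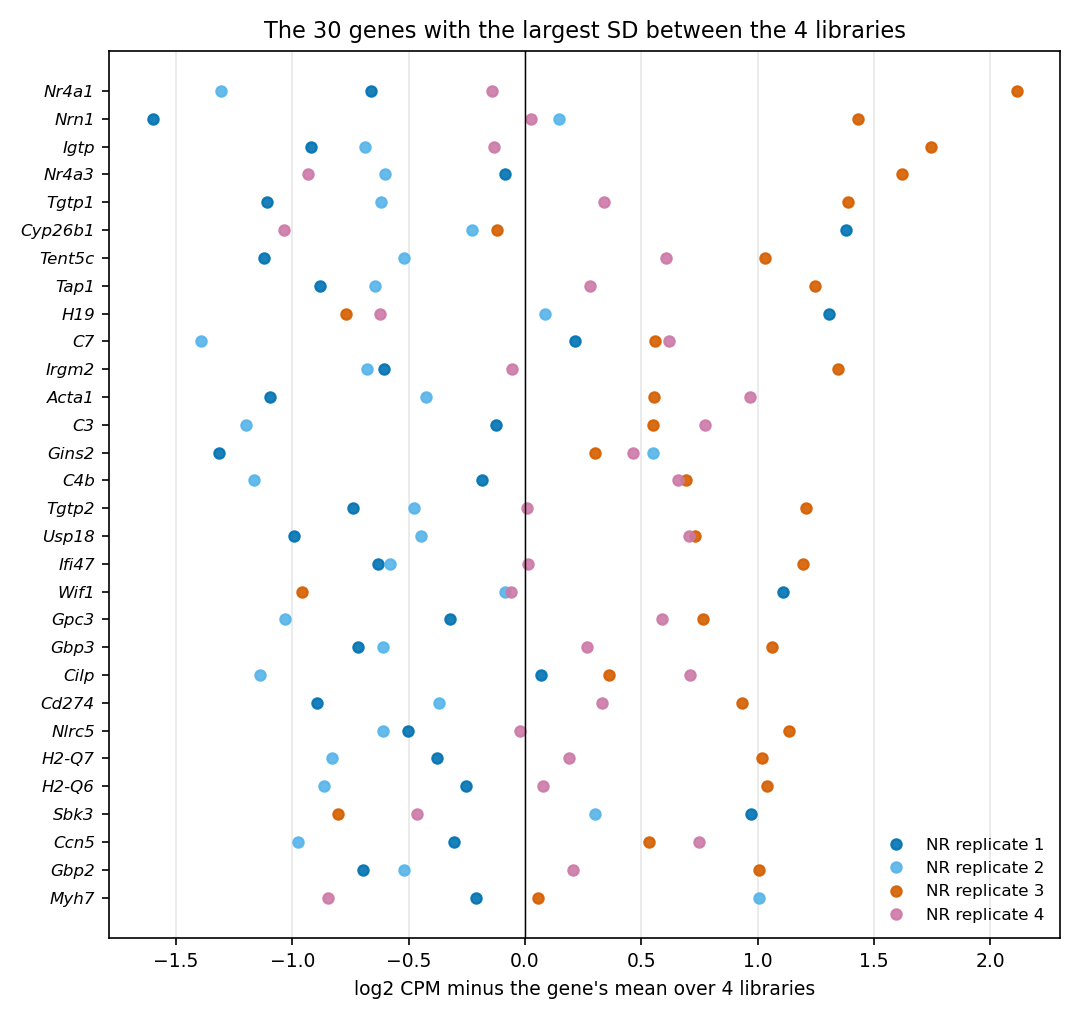
Deviation of log2 CPM from the mean of each gene (x) for the 30 genes with the largest SD among those with a mean of at least 2 CPM (y, ordered by SD), with 1 point for each of the 4 libraries. Replicate 3 lies farthest right for Nr4a1, Igtp and Tap1, replicate 2 farthest left for C7, C3 and C4b, and replicate 1 farthest right for H19, Wif1 and Cyp26b1.

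Across all filtered genes the first principal component held 55.5% of the variance between the 4 libraries, with scores of -9.58, -22.4, 16.1 and 15.9. Among genes with a mean of at least 5 CPM its positive end held Nr4a1, Tgtp1, Igtp, C4b and C3, and its negative end Cenpf, H19, Myh7, Cacna1h and Erbb4. Cenpf, a kinetochore protein gene with a long transcript, had 34.6, 34.7, 15.3 and 12.9 CPM. Of the 483 variable genes 217 (44.9%) lay above their mean in replicates 3 and 4 and below it in replicates 1 and 2, a pattern found in 19.1% of all genes tested. Another 44 (9.11%) showed the opposite signs, against 17.8% of all genes.

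Clock genes follow the time of day. Dbp, a clock output gene, had 72.5, 82.9, 85.5 and 91.5 TPM, Nr1d1, which encodes REV-ERB alpha, 27.2, 28.9, 37.5 and 54.8, and Arntl, which encodes BMAL1, 0.37, 0.61, 0.9 and 1.4. TPM is pushed down where the mitochondrial share is high, so a rise in TPM over the libraries need not be one in nuclear TPM. The 19 clock genes summed to 214, 243, 266 and 294 TPM but to 686, 683, 661 and 663 in nuclear TPM. The 19 clock genes had a median SD of 0.16, against 0.13 over all genes tested, and 1 of them, Arntl with 0.55, reached 0.5, a share near the 3.67% of all genes. Heat shock genes had a median of 0.08, and none of the 22 reached 0.5, a count too small to set apart from 3.67%. Among them Cryab, the lens and muscle chaperone, had 1279 ± 261 TPM. Genes that respond to fasting, glucocorticoids and insulin had a median SD of 0.26. Of these 20 genes 3 reached 0.5, against 3.67% of all genes, namely Angptl4, Cdkn1a and Pdk4 at 0.56, 0.52 and 0.50. Cell cycle genes were scarce, with 7 of 25 at 1 TPM or more in every library, and Top2a and Mki67 averaged 0.415 and 0.207 TPM. Of the 18 cell cycle genes that passed the filter on low counts 5 had an SD of at least 0.5, Top2a among them with 0.99. The SD is larger at low levels, however. Of 1386 olfactory receptor genes 1320 had no count, and the highest, Olfr1033, averaged 1.12 TPM.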

How the data were processed

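Poly(A)-selected RNA of unirradiated heart apex was sequenced in 4 directional bulk libraries, per the labels' protocols. The submitters' processing notes name FastQC, cutadapt, STAR, RSEM and edgeR, and both GRCm39 and mm10, with no versions. Which build each file used, and whether strand was used in counting, are not given in the sources used here. The authors deposited RSEM gene tables, with an expected count per gene (an estimated count, which divides reads that match several genes), TPM, and lengths in bases, per the file headers. Gene identifiers in the files were paired with names for 52081 of 55414, and the 3333 others held 0.0715% to 0.121% of counts. The 7 irradiated libraries were left out.

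From these, levels were taken as deposited TPM and as TPM rescaled over nuclear genes. For spread, expected counts were rounded, filtered (filterByExpr in edgeR 4.0.16, minimum count 10) and converted to log2 CPM with TMM factors (0.863 to 1.17) and a prior count of 2 in R 4.3.3. No test between groups was made, and no p-value is given. Totals of 27780213 to 37372372 expected counts set the precision, and limits for a count of 0 cover counting error only. Mitochondrial copies were found by words of 31 bases shared with GENCODE M21 transcripts. Tables and figures were made with Python 3.11.15, pandas 2.3.3 and matplotlib 3.10.9.

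Genes were named by rule: the 30 with the highest mean TPM, up to 5 of highest level and 4 of largest SD in each list, all members of paralog sets, list members at 0, the 30 with the largest and 10 with the smallest SD, and 10 at each end of the first principal component, leaving out predicted genes from the last 3. Other list members, such as Cdh5, Pecam1, Pdgfra, Csf1r, Adgre1, Fos and Mki67, and the 7 copies, were named after their values were seen. The members and lists were chosen with earlier results of these data known. Of the listed genes 8 matched no name in the files. Alternatives covered thresholds, scale, normalisation, prior count, filter, length trend, depth and leaving out each library.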

Additional observations from a re-analysis of the deposited data

Results flagged for a closer look

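In 90 checks of a single gene's 4 values for a library far from the others, 4 stood out by Dixon's criterion, where chance gives about 1 in 20, so their number is no more than chance gives. The genes Nr4a1, Nr4a3 and Igtp were also among those named for the largest spread. In all 4 the distant value was the highest and belonged to replicate 3. Nr4a1 had 31.8 CPM there, against 2.91 to 6.60 CPM in the other libraries. Nr4a3, its relative, had 7.03 CPM, against 1.15 to 2.11 CPM. Igtp, the interferon-inducible GTPase, had 49.3 CPM, against 7.73 to 13.4 CPM. Usmg5, a small subunit of ATP synthase, had 2050.2 TPM, against 1969 to 1981 TPM, a far smaller relative difference.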

How the results depend on the processing

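No paired analysis was possible because only 1 group was described. The number of genes detected in all 4 libraries was 5353 at a minimum of 5 TPM, in place of 10171 at 1 TPM, and 10185 to 10466 when each library was left out. The mitochondrially encoded share of expected counts was 37.0%, as a share of TPM 47.3%, with the nuclear copies added (an alternative chosen after seeing the data) 42.8%, and 34.8% to 39.1% when each library was left out. The 50 most abundant genes held 72% of TPM, 55% of counts, 50.3% over nuclear genes and 31.6% without the copies as well (also chosen after seeing the data), and 70.3% to 73.6% with a library left out. Genes with an SD of at least 0.5 numbered 483, or 1065 with library size alone as the scale, 4478 with no filter on low counts, 134 at a mean of at least 5 CPM, and 416 to 687 with a library left out. On the log2(TPM + 1) scale 332 genes passed, of which 134 were among the 483. Without replicate 2, 253 of the 483 (52.4%) were still among the variable genes. The median SD was 0.13, or 0.23 with library size alone, 0.23 on the log2(TPM + 1) scale and 0.25 with no filter, and 0.11 to 0.13 with a library left out. The cause was not tested. Of the 30 most variable genes 22 kept an SD of at least 0.5 without replicate 3, 25 without replicate 2, 28 without replicate 1 and 30 without replicate 4. Levels of named genes moved by more than their SD in 85 of 90 recomputations on other scales, where the unit itself changes. None of 120 moved with a library left out, which was fixed in advance. Leaving out 1 of 4 values cannot shift a mean by as much as its SD. Neither count therefore measures how firm the levels are. Depth limits low genes most: under 1 CPM the median SD was 0.31 and the counting estimate 0.32. These are not like measures, because the counting estimate takes no prior count. They do not show that counting makes up all of the spread there.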
